A study of Mus musculus with 24 samples.

Results

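Matrix metalloproteinases (MMPs), ADAMTS proteases and their tissue inhibitors (TIMPs) were followed in mammary tumors of mice. The members were the array's probes, other than control spots, whose gene name starts with Mmp, Timp or Adamts and a digit: 66 probes of 46 genes, 23 MMP, 19 ADAMTS and 4 TIMP, among 30119 genes on the array. After a filter on dim probes 36 members could be tested, 17 MMP, 15 ADAMTS and 4 TIMP. The rule used gene names and the filter used signal, but earlier results of these data were known when the members were chosen.

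The tumors arose in female BALB/c mice, all given the carcinogen DMBA, and each of the 24 arrays hybridised RNA of 1 tumor against a pooled reference RNA from 11 mouse cell lines. Mice kept to 1 diet, rich in saturated animal fat (HFD) or low in fat (LFD), or changed after peripuberty, from HFD to LFD (HFD-LFD) or from LFD to HFD (LFD-HFD). The labels split the tumors by onset: early tumors came from HFD (3) and HFD-LFD (3), and late tumors from LFD (5), HFD (6), LFD-HFD (4) and HFD-LFD (3). No early tumor came from LFD or LFD-HFD, so onset was compared over all 6 early and 18 late tumors and again within HFD and within HFD-LFD. The labels do not say whether tumors are from separate mice, so p-values measure the spread between these tumors. No normal mammary gland was hybridised, and a carcinogen-induced tumor holds epithelium, stroma, vessels, fat and immune cells in unknown shares. In such bulk RNA, fewer cells of a type and less RNA per cell cannot be told apart.

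MMPs are zinc proteases, most of them secreted as inactive zymogens, that cleave collagens, elastin, laminins and other extracellular proteins. ADAMTS proteases are secreted relatives with thrombospondin motifs, among them enzymes that cleave the proteoglycans aggrecan and versican and enzymes that trim procollagen. TIMPs bind the catalytic site of MMPs and, in the case of Timp3, of several ADAMTS proteases too. In the mammary gland this system remodels the matrix around growing ducts and during involution, and in tumors much of it is made by stromal and immune cells.

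Of the MMP genes, 10 lie side by side on mouse chromosome 9, in the order Mmp13, Mmp12, Mmp1b, Mmp3, Mmp1a, Mmp10, Mmp8, Mmp27, Mmp20 and Mmp7, and promoters of the cluster are shown because most of its genes held a short motif that was in none of the other members' promoters searched. The heptamer TGACTCA, or TGAGTCA, which is the same site read on the other strand, is the classical recognition sequence of AP-1, the Fos and Jun transcription factors. It was present within 250 bases before a start in 7 of the 10 cluster genes and in 0 of the 22 other members with a promoter in the RefSeq table, against 1466 of all 32851 promoters (4.463%). The cluster and other-member counts are of genes, while the last count is of promoters. Mmp12 and Mmp7 each had a start with the heptamer and another without it. Below are 120 bases ending at the base before the start, on the plus strand of GRCm38.p6, with the heptamer in capitals, for Mmp13 (chr9:7272394-7272513), the second start of Mmp12 (chr9:7347254-7347373), Mmp3 (chr9:7445702-7445821), Mmp10 (chr9:7502222-7502341), the first start of Mmp7 (chr9:7691970-7692089) and, as a cluster gene without it, Mmp8 (chr9:7558309-7558428).
Mmp13: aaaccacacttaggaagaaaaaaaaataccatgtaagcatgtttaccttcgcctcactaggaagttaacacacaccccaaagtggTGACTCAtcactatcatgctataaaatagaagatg
Mmp12: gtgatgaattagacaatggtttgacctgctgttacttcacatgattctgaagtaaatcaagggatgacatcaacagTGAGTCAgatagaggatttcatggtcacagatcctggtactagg
Mmp3: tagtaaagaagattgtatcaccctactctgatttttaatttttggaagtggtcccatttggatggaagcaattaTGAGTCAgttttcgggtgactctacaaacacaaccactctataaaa
Mmp10: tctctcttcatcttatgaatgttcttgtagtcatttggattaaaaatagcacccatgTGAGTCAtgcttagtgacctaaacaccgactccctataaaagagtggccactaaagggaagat
Mmp7: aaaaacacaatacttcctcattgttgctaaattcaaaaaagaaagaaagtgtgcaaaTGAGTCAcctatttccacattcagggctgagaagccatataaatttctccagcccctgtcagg
Mmp8: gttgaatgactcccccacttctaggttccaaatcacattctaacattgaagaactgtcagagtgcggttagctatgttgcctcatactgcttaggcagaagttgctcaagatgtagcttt
The site began 35 bases before the start in Mmp13, 44 in Mmp12, 46 in Mmp3 and 63 in both Mmp10 and Mmp7. Mmp1a held it 73 and Mmp1b 93 bases before the start, while Mmp27 and Mmp20 had none. A match is a description of these letters, not evidence of binding, and 14 of the 46 members had no promoter in the table.

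All values are log2 ratios of tumor over reference, so a level is relative to the cell line pool and levels of different genes cannot be compared. The labels put the tumor in Cy5 and the reference in Cy3, and the direction here follows them. It opposes the dye assignment in the study's methods, which put the reference in Cy5. The signals bear on the conflict: the SD between arrays of a probe's log2 signal had a median of 0.47 in Cy5 and 0.18 in Cy3, and 2 probes of the Y-linked genes Ddx3y and Eif2s3y were dimmer in Cy5 on every array, with a highest log2 ratio of -2.46. The mice are female. Between 65.8% and 89.1% of probes were well above background, and all 9 luminal and 8 basal mammary epithelial markers passed the filter on dim probes. On 7 late arrays a block of rows, 18.8% to 28.6% of spots, was dimmed in Cy5, and those spots were left missing, so some members have values for fewer than 24 tumors. These 7 arrays make up slides 6 and 7 and the whole of scan session 3, which held 0 early tumors. The comparison of all early with all late tumors thus also carries a difference between sessions. HFD late replicate 4 stood apart, with a mean of the squamous differentiation markers of 4.53 (centred log2 ratio) against a median of -1.26 over late tumors.

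The comparison of early with late tumors asks whether tumors that appear early differ in their protease genes. Adamts9 and Adamts4 were 3.44-fold and 3.07-fold higher in early tumors, Mmp12 2.26-fold and Adamts10 1.29-fold higher, and Adamts8 was 2.58-fold lower. In all, 5 of 36 members (13.9%) passed an adjusted p of 0.05 in limma, 4 higher and 1 lower, which is near the background: 16.4% of all 21140 genes tested passed, 6.48% higher and 9.94% lower. The median difference was 0.11 over the members and -0.05 over all genes, and 21 of 36 members lay above 0. At an unadjusted p under 0.05 the count was 13 of 36 (36.1%), beside 32.4% of all genes. Centring each array on its median in place of loess moved the median of all genes from -0.05 to 0.22 and the share of calls that were higher from 39.5% to 83.4%, so a difference is read relative to that shift.

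**Figure D1:**
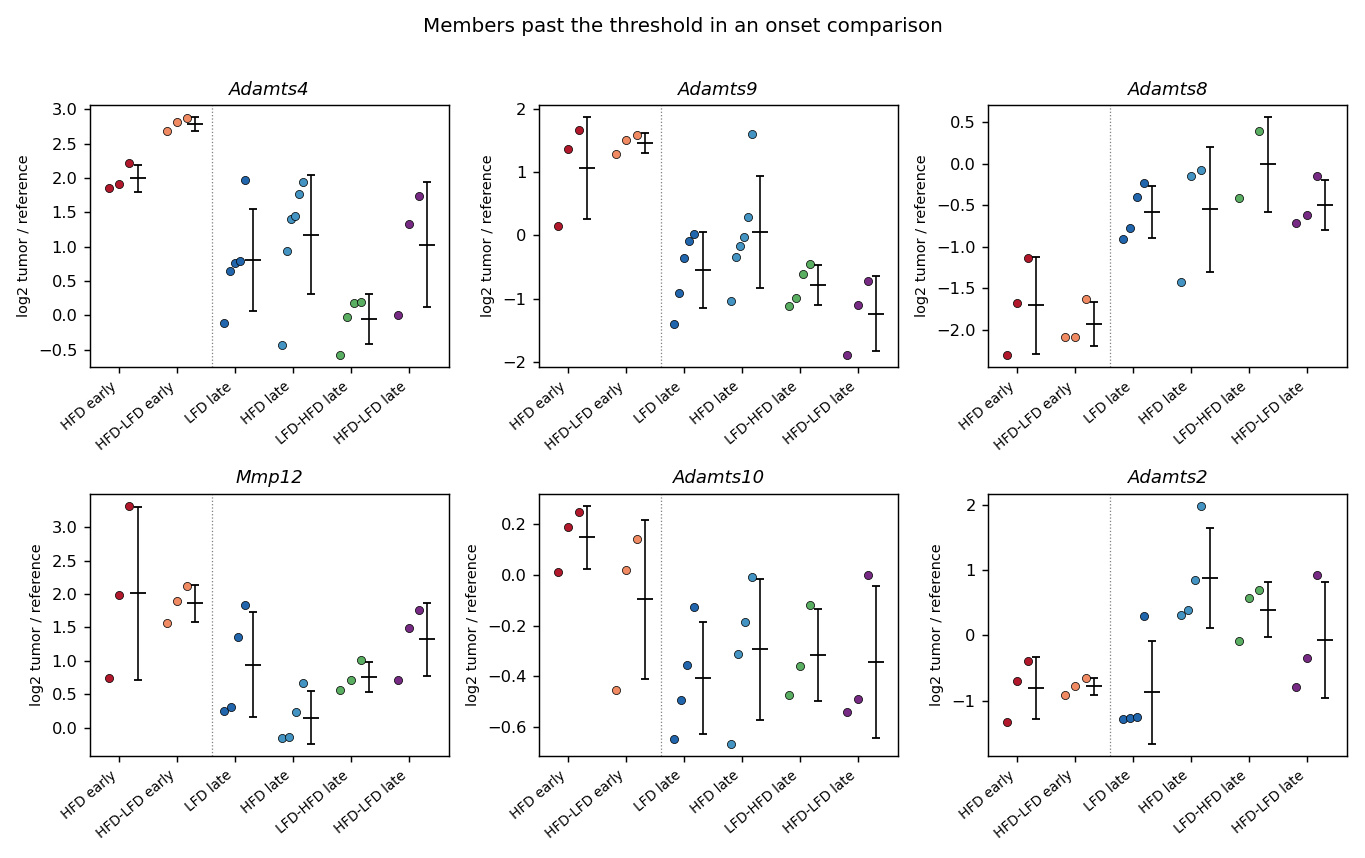
Log2 ratio of tumor to reference (y axis) in each tumor, by group (x axis), for the 6 members past the threshold in an onset comparison. Points are tumors, the dash and bar are the group mean and SD, and the dotted line parts early from late groups. All 6 early tumors lie at 1.86 or above for Adamts4 and at -1.13 or below for Adamts8.

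Adamts4, aggrecanase-1, cleaves aggrecan, versican and brevican. Its log2 ratios were 1.86, 2.22 and 1.91 in HFD early tumors and 2.81, 2.68 and 2.87 in HFD-LFD early tumors, against -0.57 to 1.97 (median 0.78) in 18 late tumors. All 6 early tumors lay above the late median, and 2 late tumors lay above the lowest early one, so the groups overlapped slightly. LFD-HFD late tumors were low, at -0.57, 0.18, -0.02 and 0.20. The difference was 1.62 (SE 0.34, adjusted p = 0.00366). That probe lies at chr1:173189952-173190011 in mm9. A second Adamts4 probe, at chr1:173190709-173190768, gave -0.05 (adjusted p = 0.922), so the probes disagreed, and the mean of both gave 0.78 (adjusted p = 0.0514). Within HFD the first probe gave 0.82 (adjusted p = 0.232) and within HFD-LFD 1.76 (adjusted p = 0.108). It passed in neither diet.

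Adamts9, a versican- and aggrecan-cleaving protease that is also needed for the secretory pathway and for cilia, was 0.15, 1.67 and 1.38 in HFD early tumors and 1.52, 1.60 and 1.29 in HFD-LFD early tumors. Late tumors ran from -1.89 to 1.61 with a median of -0.53. Only 2 of 18 late tumors lay above the lowest early value, which was HFD early replicate 1, and the highest late tumor was HFD late replicate 6. The difference was 1.78 (SE 0.33, adjusted p = 0.00148). Its second probe (chr6:92743256-92743315, mm9) also passed, with 1.25 (adjusted p = 0.00166).

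Adamts8, a protease with aggrecan-cleaving activity that is known as an inhibitor of angiogenesis, was the member called lower in early tumors. Values were -1.13, -2.30 and -1.68 in HFD early and -2.09, -1.63 and -2.08 in HFD-LFD early tumors. The 12 late tumors measured ranged from -1.42 to 0.40, with a median of -0.40. Every late tumor lay above the early median, and only HFD late replicate 4 fell within the early range. The difference was -1.37 (SE 0.22, adjusted p = 0.000925). A second probe missed the threshold at -0.28 (adjusted p = 0.0933), and with the dimmed rows kept the first gave -0.72 (adjusted p = 0.383). Within HFD the first probe gave -1.16 (adjusted p = 0.0542) and within HFD-LFD -1.44 (adjusted p = 0.0837). It passed in neither diet.

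Mmp12, the macrophage elastase, was 0.74, 1.98 and 3.32 in HFD early tumors and 1.90, 2.11 and 1.57 in HFD-LFD early tumors. The 14 late tumors with a value spanned -0.16 to 1.84, with a median of 0.69. Each late tumor was below the early median, and 5 were above the lowest early tumor. The difference was 1.18 (SE 0.33, adjusted p = 0.0200), and without HFD early replicate 3 it was 0.90 (adjusted p = 0.0675). The call was also lost with the slide as a random block (1.18, adjusted p = 0.0764) and with the scanner's log ratio (1.24, adjusted p = 0.130). The reference was well above background on 11 of 20 arrays for this probe, so its ratio rests in part on a dim denominator. A second Mmp12 probe did not pass the filter on dim probes. Its tumor signal was over the limit on 5 of 21 arrays and its reference signal on 0. Of the macrophage markers, 2 of 9 were higher in early tumors, Msr1 by 0.71 and Lyz2 by 0.68 on the log2 scale, beside 6.48% of all genes. The others did not pass, with Cd14 at -1.19, Csf1r at -0.11 and Cd68 at -0.10. Clec7a was at 0.06, Mrc1 at 0.09, Adgre1 at 0.17 and Cd163 at 0.19. The mean of that list ran from -0.14 to 0.60 in early and from -0.51 to 0.40 in late tumors. Its part in the Mmp12 difference was not tested.

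Adamts10, which acts on fibrillin microfibrils, moved least. Its values were 0.01, 0.25 and 0.19 in HFD early tumors and 0.02, 0.14 and -0.45 in HFD-LFD early tumors, and 14 late tumors lay between -0.67 and -0.00. The difference of 0.37 (SE 0.12, adjusted p = 0.0397) missed the threshold when any of 11 of the 24 tumors was left out, with values of 0.32 to 0.37. A second Adamts10 probe missed it at 0.34 (adjusted p = 0.0614). Within HFD the first probe gave 0.44 (adjusted p = 0.138) and within HFD-LFD 0.25 (adjusted p = 0.606).

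Early tumors of the 2 diets were scanned in different sessions, and each early group filled a slide or most of one. Within the session that held the HFD early tumors, 0 members passed (6.25% of all genes), with differences of 1.15 for Adamts4 (adjusted p = 0.138), 1.43 for Adamts9 (adjusted p = 0.0524), -1.14 for Adamts8 (adjusted p = 0.0623) and 1.47 for Mmp12 (adjusted p = 0.112). Within the session that held the HFD-LFD early tumors the differences were 2.35 (adjusted p = 0.0163), 2.71 (adjusted p = 0.00696), -1.54 (adjusted p = 0.00867) and 0.94 (adjusted p = 0.0828) in the same order. There 6 members passed (10.6% of all genes): Adamts4, Adamts8, Adamts9, Adamts18, Mmp15 and Mmp2. HFD early tumors were on a slide of their own, so that slide and the group cannot be told apart. The 3 HFD-LFD early tumors shared a slide with 1 LFD-HFD late tumor and with no HFD-LFD late tumor. Early against late within HFD-LFD is thus also a comparison between slides.

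**Figure D2:**
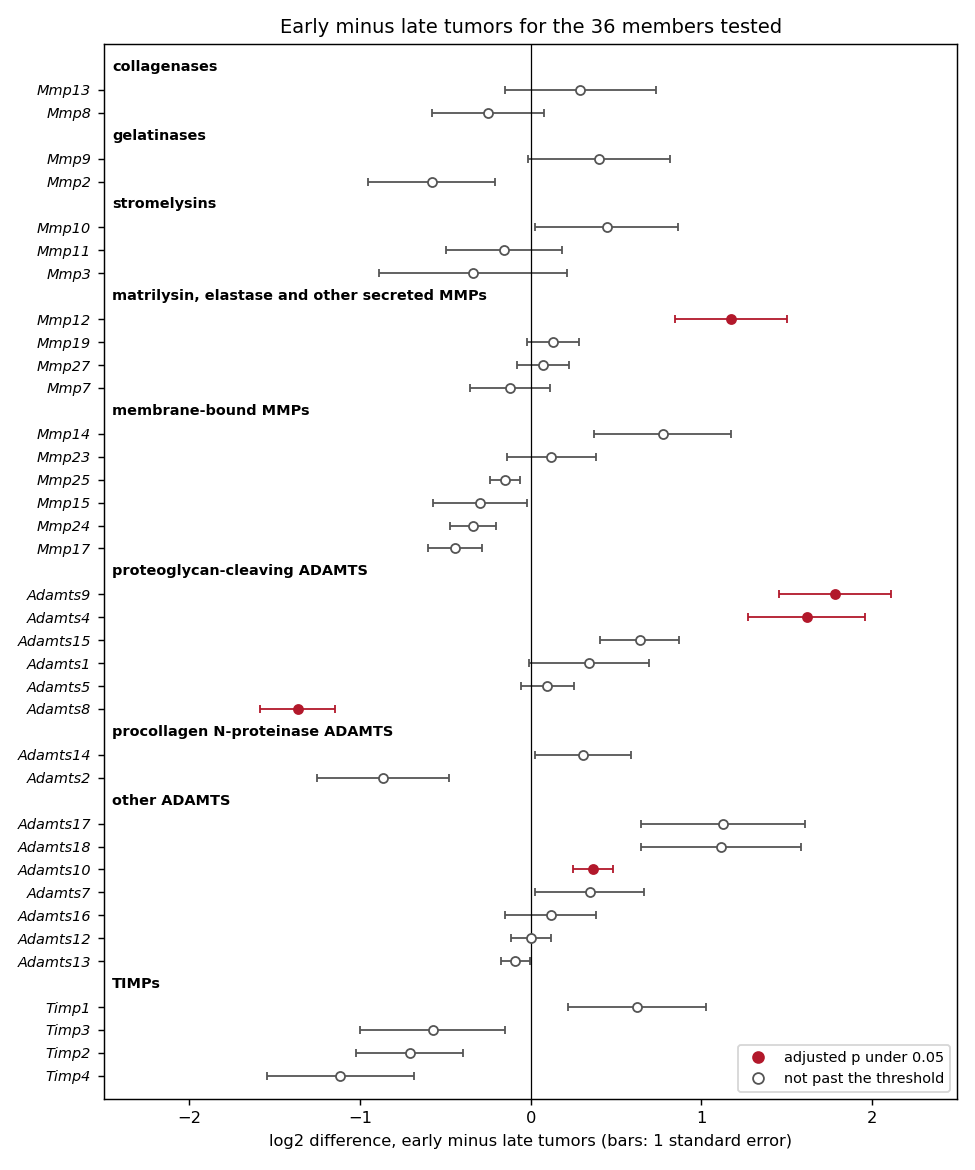
Difference between early and late tumors (x axis, log2, bars 1 standard error) for the 36 members tested, grouped by role (y axis). Filled red points passed an adjusted p of 0.05, Adamts9 being the highest at 1.78 and Adamts8 the lowest at -1.37.

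By role, the proteoglycan-cleaving ADAMTS group held 3 of the 5 calls, 2 higher and 1 lower of 6 tested, with a median difference of 0.49. Over all genes 6.48% were higher and 9.94% lower. Adamts1, which cleaves versican and aggrecan, differed by 0.34 (SE 0.35) and Adamts5, the main aggrecanase of mouse cartilage, by 0.10 (SE 0.15), and neither passed. Without 1 tumor Adamts1 ranged from 0.09 to 0.46. Among 7 other ADAMTS genes tested, Adamts10 was the 1 call, although a second probe of Adamts18, measured on 24 arrays, passed at 1.44 (adjusted p = 0.0205) where the first gave 1.12 (adjusted p = 0.101). Among 4 secreted MMPs outside the collagenase, gelatinase and stromelysin groups, Mmp12 was the 1 call. Of the remaining roles, 2 collagenases, 2 gelatinases, 3 stromelysins, 6 membrane-bound MMPs, 2 procollagen N-proteinases and 4 TIMPs had 0 calls.

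The best-known MMPs of breast tumors did not pass over all tumors. The gelatinase Mmp2, mostly a fibroblast product, had means of -1.51 ± 1.11 (SD, n = 6) for early and -0.93 ± 0.73 (SD, n = 18) for late onset (difference -0.58, SE 0.37, adjusted p = 0.286). Mmp2 passed without HFD early replicate 3 (-1.02, adjusted p = 0.0440) and within the session of the HFD-LFD early tumors (-1.13, adjusted p = 0.0159). Mmp9, the other gelatinase, averaged -2.72 ± 0.66 (SD, n = 6) and -3.12 ± 0.997 (SD, n = 18), a difference of 0.40 (SE 0.42). For Mmp14, the membrane-anchored activator of proMmp2, the means were 0.02 ± 0.81 (SD, n = 6) and -0.76 ± 0.92 (SD, n = 18), with a difference of 0.77 (SE 0.40, adjusted p = 0.181). The late median of Mmp14 was exceeded in all 6 early tumors, but 8 late tumors lay above the lowest of them. With arrays centred on their median Mmp14 passed, at 1.20 (adjusted p = 0.0304). Without slides 6 and 7, which held no early tumor, Mmp14 differed by 0.39 (adjusted p = 0.529). It differed by 0.80 (adjusted p = 0.330) within the session of the HFD early tumors and by 0.37 (adjusted p = 0.247) within that of the HFD-LFD early tumors.

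Collagenase-3 (Mmp13) and the stromelysins did not pass either. Mmp13 differed by 0.29 (SE 0.44), stromelysin-1 (Mmp3) by -0.34 (SE 0.55), stromelysin-2 (Mmp10) by 0.45 (SE 0.42) and stromelysin-3 (Mmp11), a stromal marker of invasive carcinoma, by -0.16 (SE 0.34). Mmp3 and Mmp11 changed sign, to 0.03 and 0.25, when arrays were centred on their median, and Mmp11 also did without HFD late replicate 4 (0.016). Matrilysin (Mmp7), an epithelial MMP, differed by -0.12 (SE 0.23). Leaving out 1 tumor at a time moved Mmp13 between 0.098 and 0.55, Mmp3 between -0.60 and -0.02, and Mmp7 between -0.18 and -0.02.

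Timp4, Timp2 and Timp3 had negative and Timp1 a positive difference between early and late tumors, and none of the 4 passed the threshold over all tumors. Timp4, the TIMP best known from heart and fat, was -2.64, -2.81 and -2.43 in HFD early and -2.92, -3.01 and -3.14 in HFD-LFD early tumors. In 14 late tumors it ran from -3.11 to 1.05 with a median of -1.74. All 6 early tumors were below that median, while 5 late tumors lay below the highest early one. The difference was -1.11 (SE 0.43, adjusted p = 0.0801), and it passed without LFD late replicate 3 (-1.22, adjusted p = 0.0442) and with array weights (-1.46, adjusted p = 0.00942). Median centring gave -0.91 (adjusted p = 0.156) and the scanner's log ratio -1.19 (adjusted p = 0.207).

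Timp2, which both inhibits Mmp2 and takes part in its activation by Mmp14, was -1.31, -0.55 and -0.49 in HFD early and -0.66, -0.99 and -1.08 in HFD-LFD early tumors, and 14 late tumors lay between -1.39 and 1.10 (median -0.09). All early tumors again lay below the late median, within the late range. The difference was -0.71 (SE 0.31, adjusted p = 0.124), and a second Timp2 probe gave -0.63 (adjusted p = 0.0487). Timp2 passed with the scan session as a block (-0.95, adjusted p = 0.0435), where it was also called within HFD and within HFD-LFD, without slides 6 and 7 (-0.93, adjusted p = 0.0461), with array weights (-0.80, adjusted p = 0.0206) and as the mean of its probes (-0.73, adjusted p = 0.0430). Timp2 did not pass with median centring (-0.35, adjusted p = 0.344) or with the slide as a random block (-0.73, adjusted p = 0.246). The scanner's log ratio gave -0.59 (adjusted p = 0.221), and the session of the HFD early tumors alone -0.81 (adjusted p = 0.270). Timp3, the matrix-bound member, differed by -0.57 (SE 0.42, adjusted p = 0.360). Its HFD early tumors alone spanned -0.37 to 2.46, and leaving out 1 tumor moved the difference between -0.86 and -0.30. Timp1, an inducible inhibitor that is raised in inflamed tissue, had means of 0.91 ± 0.52 (SD, n = 6) for early and 0.29 ± 0.99 (SD, n = 14) for late onset (difference 0.62, SE 0.40, adjusted p = 0.297), and passed at 1.11 (adjusted p = 0.0475) with median centring.

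**Figure D3:**
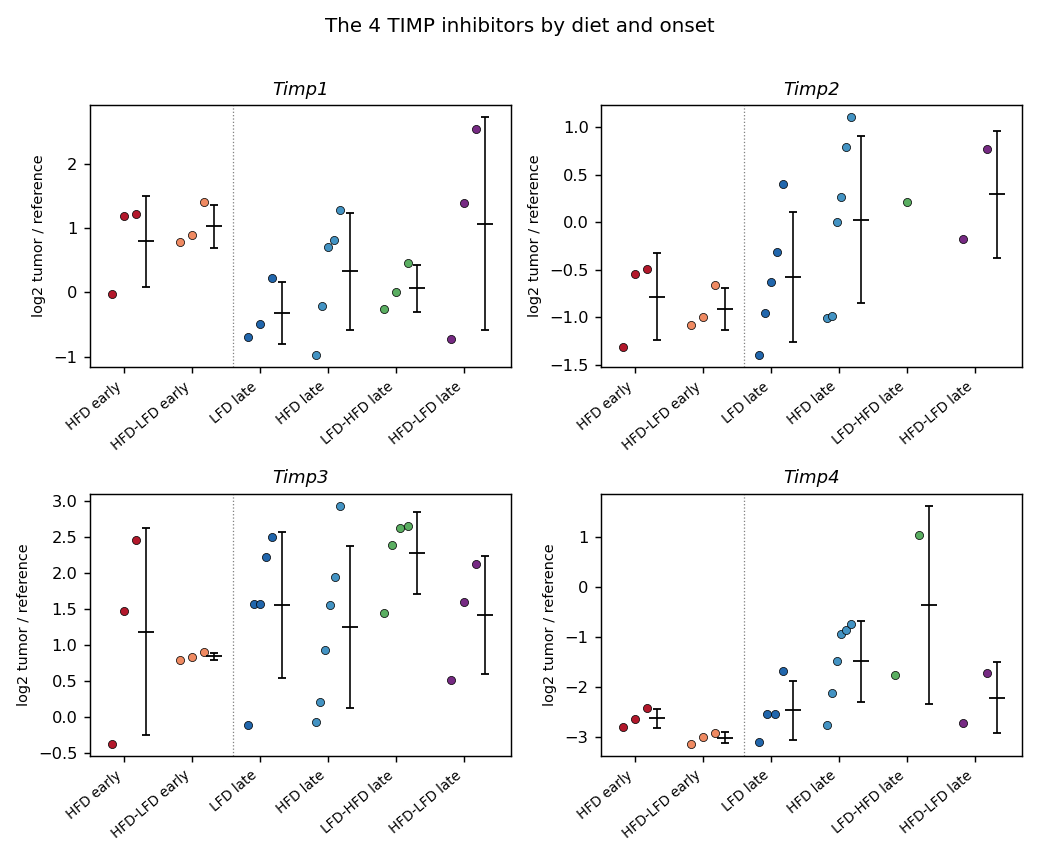
Log2 ratio of tumor to reference (y axis) for the 4 TIMP genes in each tumor, by group (x axis). Points are tumors, and the dash and bar are the group mean and SD where a group has over 1 value. Early Timp4 values lie within -3.14 to -2.43, and late values reach 1.05 in LFD-HFD late replicate 3.

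Within HFD, Mmp12 was higher and Adamts2 lower in early than in late tumors, and within HFD-LFD, Adamts9 was higher. These were 2 of 36 and 1 of 36 members, against 12.0% and 0.797% of all genes tested. At an unadjusted p under 0.05 there were 8 and 4, beside 29.1% and 15.0% of all genes. Mmp12 in HFD tumors differed by 1.86 (SE 0.49, adjusted p = 0.0221), the 4 HFD late values being 0.67, -0.16, -0.14 and 0.24, all below the 3 early ones. Without HFD early replicate 3 the difference was 1.21 (adjusted p = 0.118), and the call was also lost without HFD early replicate 2 (1.87, adjusted p = 0.0695), HFD late replicate 2 (1.76, adjusted p = 0.0513) or HFD late replicate 3 (1.76, adjusted p = 0.0504). The scanner's log ratio also lost it (2.32, adjusted p = 0.0577), while the tumor channel alone gave 3.40 (adjusted p = 0.00875). Within HFD-LFD, Mmp12 differed by 0.54 (SE 0.52, adjusted p = 0.663).

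Adamts2, which removes the amino-terminal propeptide of fibrillar procollagens, was -1.32, -0.70 and -0.39 in HFD early and 0.85, 0.32, 0.39 and 1.99 in HFD late tumors, without overlap. The difference was -1.69 (SE 0.47, adjusted p = 0.0289). It was -1.32 (adjusted p = 0.0681) without HFD late replicate 4, and the call was lost as well without HFD early replicate 1 (-1.43, adjusted p = 0.117), replicate 2 (-1.74, adjusted p = 0.0793) or replicate 3 (-1.90, adjusted p = 0.0514). Over all early and late tumors Adamts2 differed by -0.86 (adjusted p = 0.127), and LFD late tumors were low too, at -1.29, 0.31, -1.25 and -1.28. A second Adamts2 probe gave -0.19 over all tumors (adjusted p = 0.468). The HFD difference was 0.39 (SE 1.57) with the dimmed rows kept, -1.06 (adjusted p = 0.163) with median centring and -1.54 (adjusted p = 0.0544) from the tumor channel alone, and with the slide as a random block neither Adamts2 (adjusted p = 0.0959) nor Mmp12 (adjusted p = 0.0811) passed within HFD.

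For Adamts9 in HFD-LFD tumors, the late values of -1.89, -0.72 and -1.10 were below all 3 early ones, and the difference was 2.71 (SE 0.51, adjusted p = 0.0144). The call was lost without HFD-LFD late replicate 1 (2.38, adjusted p = 0.0528), HFD-LFD early replicate 1 (2.68, adjusted p = 0.0739) or replicate 2 (2.64, adjusted p = 0.0653). In HFD tumors the difference was 1.01 (SE 0.44, adjusted p = 0.131). The test of the difference between diets gave -1.70 for HFD minus HFD-LFD (SE 0.67, unadjusted p = 0.0193, adjusted p = 0.579), so the onset change of Adamts9 was not shown to differ between diets. In that test 0 members passed in limma and 1 had an unadjusted p under 0.05, beside 0.00955% and 7.92% of all genes.

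Whether diet goes with protease expression was asked by comparing 9 HFD with 5 LFD tumors and by a joint test over the late groups. The 9 HFD tumors hold 3 early ones, and all 5 LFD tumors are late. Diet and onset therefore cannot be told apart in the first comparison. In HFD against LFD tumors, 0 of 36 members passed in limma, and 0% of all genes did. At an unadjusted p under 0.05 there were 5 members, against 5.06% of all genes: Mmp3 differed by 1.43 (SE 0.49), Adamts14 by 1.01, Adamts9 by 0.94, Mmp23 by 0.80 and Adamts5 by 0.40, all higher in HFD, and the lowest adjusted p was 0.931. For Mmp3, which activates other proMMPs, LFD tumors had 2.05, 4.08, 3.44, 4.45 and 2.86, and HFD late tumors 5.94, 5.39, 5.38, 5.17, 5.37 and 4.00. Thus 5 of 6 HFD late tumors lay above every LFD tumor, and of the HFD early tumors (2.97, 4.93 and 4.07) only replicate 2 did. LFD late replicates 1, 2, 3 and 5 filled slide 1, HFD late replicates 1 to 4 filled slide 3, and HFD early tumors were on slide 2. For those tumors diet and slide cannot be told apart. On slide 6, which both diets shared, LFD late replicate 4 (4.45) lay between HFD late replicates 5 (5.37) and 6 (4.00). The reference was well above background on 15 of 21 arrays for the Mmp3 probe.

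Among late tumors of the 4 diets, 0 members passed the joint test in limma, against 2.15% of all genes. Most LFD and HFD late tumors were on slides of their own, so diet and slide cannot be fully told apart here either. An unadjusted p under 0.05 was reached by Adamts2, Adamts4, Adamts7, Adamts9, Adamts14, Adamts16, Mmp3, Mmp11 and Timp4, 9 of 36 members beside 20.3% of all genes, and the lowest adjusted p was 0.106, for Adamts2. Timp4 averaged -2.47 ± 0.59 (SD, n = 4) in LFD, -1.48 ± 0.82 (SD, n = 6) in HFD and -2.22 ± 0.71 (SD, n = 2) in HFD-LFD late tumors, and the 2 LFD-HFD late tumors measured were -1.77 and 1.05. For Mmp11 the HFD late mean of -0.21 ± 1.18 (SD, n = 6) rested on HFD late replicate 4, at 2.06, the next tumor being at -0.04.

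Mmp9, Mmp10 and Mmp13 each spanned over 3 log2 units among late tumors. Mmp13 and Mmp10, both of the chromosome 9 cluster, varied together. Mmp13 was highest in HFD late replicate 4 (-0.97), LFD late replicate 3 (-1.25) and HFD early replicate 2 (-1.25), and lowest in HFD late replicate 5 (-4.26). Mmp10 reached 3.12 in HFD late replicate 4 and 2.32 in HFD-LFD late replicate 3, and was -0.59 in LFD-HFD late replicate 3. The same tumor was thus highest for both. Their correlation over 24 tumors was Pearson's r = 0.77 (permutation p adjusted over 630 member pairs = 0.00473) and Spearman's rho = 0.75 (adjusted permutation p = 0.0105). It was 0.71 without the 2 tumors farthest from the median of Mmp13, 0.82 within late tumors and 0.67 within the largest scan session.

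The cluster as a whole did not move as a block. Of the 21 pairs among its 7 tested genes, 12 had r above 0 and 1 passed, with a median r of 0.20 against 0.097 over all member pairs. Mmp7 ran against its neighbours Mmp27 (r = -0.49, adjusted permutation p = 0.156) and Mmp8 (r = -0.41, adjusted permutation p = 0.266), without passing. Mmp3 and Mmp10, which both hold the heptamer shown above, had r = -0.06. Cluster genes that did not pass the dim-probe filter were Mmp1a (tumor signal over the limit on 5 of 20 arrays), Mmp1b (17 of 24, and the reference on 12) and Mmp20, the tooth enamel protease (0 of 21).

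**Figure D4:**
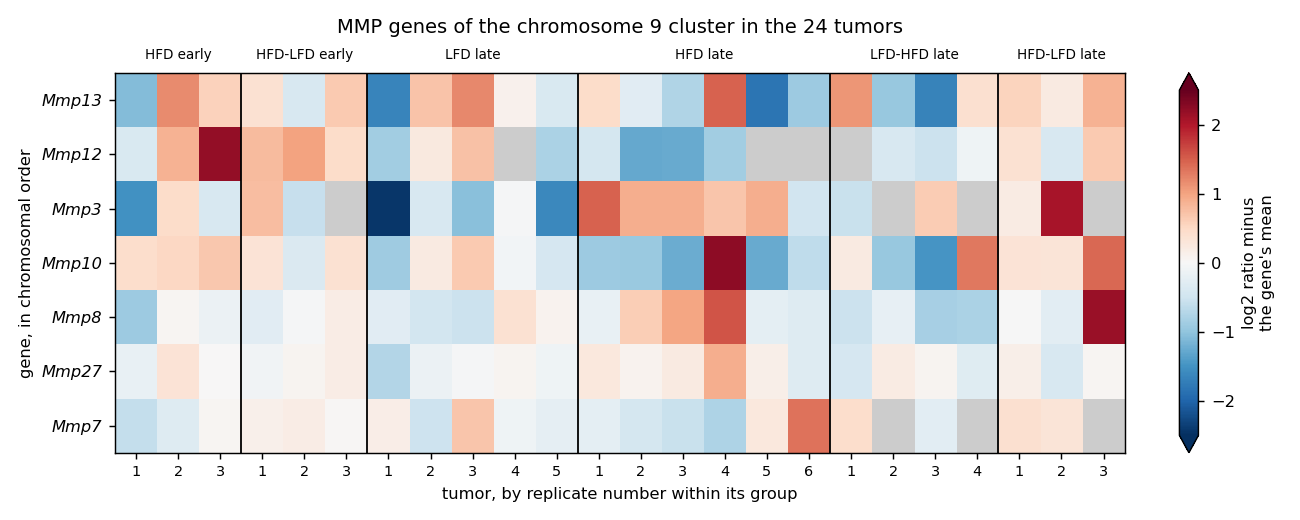
Log2 ratio minus the gene's mean (colour) for the 7 tested MMP genes of the chromosome 9 cluster (y axis, chromosomal order) in the 24 tumors (x axis, replicate number within each group). Grey cells are missing. HFD late replicate 4 is high for Mmp13 and Mmp10, and Mmp12 is high in most early tumors.

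Of the 630 member pairs, 15 passed by both coefficients, 14 above 0 and 1 below. Mmp9 and Timp1, a protease and the inhibitor that binds its proform, had r = 0.78 (rho = 0.75, n = 20), and 0.80 within late tumors. Adamts2 and Timp2 had r = 0.80 (n = 16), Mmp11 and Mmp27 0.78, and Timp2 and Timp4 0.71. The 1 negative pair was Adamts4 with Adamts8, at -0.78 over 18 tumors but -0.39 within the 12 late ones.

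Each member was set beside the mean of 10 marker lists, since the tumors differ in tissue make-up. Early tumors were higher in 7 of 10 proliferation genes, and 0 of 9 neutrophil and 0 of 12 squamous genes passed. Early tumors were lower in 4 of 9 luminal, 3 of 10 endothelial, 2 of 12 fibroblast, 1 of 8 basal, 1 of 7 adipocyte and 1 of 8 muscle genes. Over all genes 6.48% were higher and 9.94% lower, and the fibroblast, basal, adipocyte and muscle counts were near that share. The luminal mean had a median of -1.54 (range -1.89 to 0.56) in early and 1.40 (-3.28 to 2.03) in late tumors, and the squamous mean 1.33 (-0.89 to 2.06) and -1.26 (-1.97 to 4.53). The proliferation mean was 0.24 to 0.97 in early and -1.12 to 1.11 in late tumors. Early and late medians were -0.63 and 0.11 for the endothelial, -0.44 and 0.43 for the basal and -0.78 and 0.20 for the adipocyte mean. In each of these 0 early tumors lay above the late median. The luminal, squamous, proliferation, endothelial, basal and adipocyte means thus move with the early against late differences above. Their part in those differences was not tested.

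Of 360 relations between a member and a marker mean, 48 passed by both coefficients after adjustment over all 360, 35 above 0 and 13 below. The strongest was Timp4 with the adipocyte genes, r = 0.94 over 20 tumors (rho = 0.86, each adjusted permutation p = 0.0012). LFD-HFD late replicate 3 was highest for both, with Timp4 at 1.05 and the adipocyte mean at 3.25, and r was 0.85 without the 2 farthest tumors and 0.98 within late tumors. Timp2 also followed the adipocyte mean (r = 0.75) and ran against the proliferation mean (r = -0.76).

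Adamts2 followed the fibroblast genes, among them the fibrillar collagens whose precursors it trims, with r = 0.90 (rho = 0.87, n = 20), 0.83 without the 2 farthest tumors and 0.89 within late tumors. The stromal Mmp11 did so too (r = 0.72, n = 24), and 0.57 without the 2 farthest. Mmp7 ran the other way (r = -0.66, n = 21, and -0.81 within 15 late tumors).

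Mmp9, Mmp10, Mmp13, Timp1 and Adamts4 followed squamous differentiation, the keratin, loricrin and small proline-rich genes of cornifying epithelium. Mmp9 had r = 0.83 (rho = 0.70, n = 24), Timp1 0.73, Mmp10 0.71, Mmp13 0.60 and Adamts4 0.60. Without the 2 tumors at the extremes of that list Mmp9 stayed at 0.72 and Mmp10 was at 0.50. Mmp9 also followed the mean of the neutrophil genes (r = 0.65), as did Timp1 (r = 0.74). The genes of that list differed in direction between early and late tumors. S100a9 was at 2.62, S100a8 at 2.25, Cxcr2 at 0.03, Csf3r at -0.07 and Ltf at -0.12. Ly6g was at -0.16, Retnlg at -0.34, Lcn2 at -0.70 and Camp at -1.11. Whether the neutrophil and squamous relations are separate was not tested. HFD-LFD late replicate 3 was highest for Mmp9 (-0.89), Timp1 (2.55) and Mmp8 and had neutrophil and squamous means of 3.61 and 3.12. For Mmp8, neutrophil collagenase, r with the neutrophil genes was 0.66, but 0.39 without the 2 farthest tumors and 0.23 within the largest session.

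**Figure D5:**
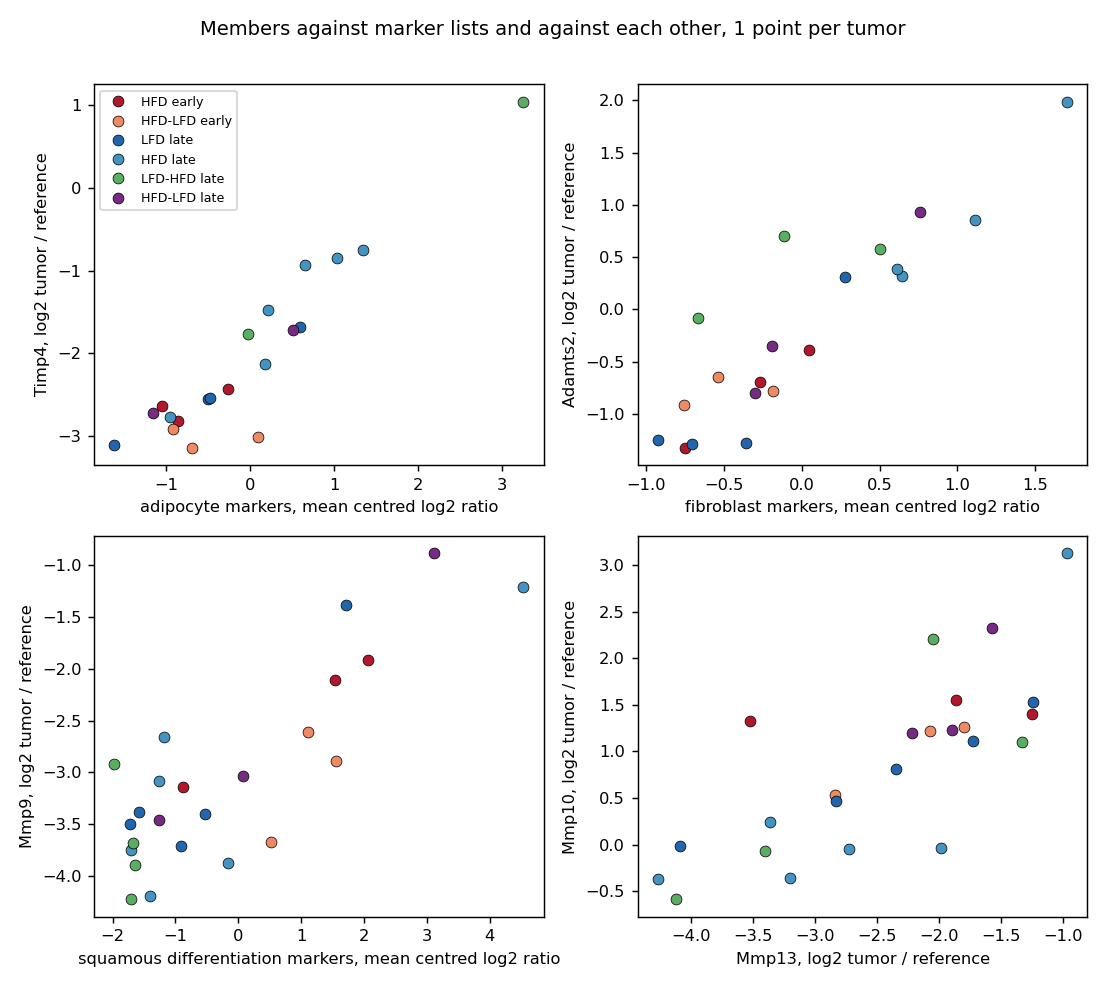
Timp4 against the adipocyte mean, Adamts2 against the fibroblast mean, Mmp9 against the squamous mean and Mmp10 against Mmp13, all log2 (marker means centred by gene), 1 point per tumor coloured by group. The points rise together in each panel, with r = 0.94, 0.90, 0.83 and 0.77.

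Of the 5 members called in early tumors, Adamts4, Adamts8 and Mmp12 had relations that passed, and Adamts9 and Adamts10 had none. Adamts4 followed the proliferation mean (r = 0.73, n = 24, and 0.67 within late tumors). It ran against the luminal mean (r = -0.73, and -0.56 within late tumors) and the basal mean (r = -0.69, and -0.62 within late tumors). Adamts8 followed the luminal mean (r = 0.80, n = 18, and 0.64 within late tumors) and the endothelial mean (r = 0.71, but 0.22 within late tumors). It ran against the proliferation mean (r = -0.68, and -0.38 within late tumors) and the squamous mean (r = -0.61, and -0.69 within late tumors). Mmp12 ran against the endothelial mean (r = -0.67, n = 20), and its relation to the macrophage mean did not pass.

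Genes that activate, restrain or resemble these proteases gave a mixed picture in early against late tumors. The counts below stand beside 6.48% of all genes higher and 9.94% lower. Of 19 activators and inhibitors tested, 3 were higher and 2 lower (median difference 0.09): the proprotein convertase Pcsk6 by 2.08 (SE 0.31), the serine protease inhibitor Serpine2 by 1.23 and the membrane serine protease Hpn, which differed by -2.19 (SE 0.43), among them. The ADAM proteases, most of them membrane-anchored, had 0 higher and 6 lower of 12 (median -0.56), led by the secreted Adamdec1 at -1.37, Adam28 at -0.87 and Adam33 at -0.61. ADAMTS-like proteins, which lack a protease domain, had 2 lower of 7, Papln at -1.50 and Adamtsl2 at -1.20.

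Among 22 matrix substrates, 0 were higher and 3 lower: von Willebrand factor (Vwf) at -2.64, decorin (Dcn) at -2.44 and aggrecan (Acan) at -0.93. Here too the shares over all genes were 6.48% higher and 9.94% lower. Vwf and Dcn are also on the endothelial and fibroblast marker lists. Of 14 AP-1, ETS and Runt-family factors, which bind MMP promoters, Ets1 at 1.50, Etv4 at 1.49 and Runx2, a partner of AP-1 at the Mmp13 promoter, at 0.38 were higher, and none of the Fos and Jun genes passed.

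In all, 10 members, the 3 cluster genes above among them, could not be tested because their signal was not over the limit in both channels on enough arrays. Mmp16, a membrane-bound MMP, had tumor signal over the limit on 2 of 20 arrays not dimmed there and Adamts20 on 7 of 24. Adamts6 reached 15 of 24 and Adamts19 16 of 24. For Adamts3, a procollagen protease, the tumor was over the limit on 19 of 21 and 16 of 20 arrays with its 2 probes, and the reference was the dimmer channel (7 and 15 arrays). The 2 probes of Mmp21 gave 4 of 22 and 10 of 24, and those of Mmp28, an epithelial MMP, 5 of 20 and 17 of 21.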

How the data were processed

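Gene expression in 24 mammary tumors was measured on Agilent 2-colour arrays. The deposited files hold raw spot intensities of both channels and the scanner software's log10 ratio, which the authors made with Agilent Feature Extraction (8.5.1.1 in the submitters' processing notes, 11.0.1.1 per the file headers). Probe positions are mm9. From the intensities, normexp background correction (offset 50), loess and the mean over spots of a probe gave log2 ratios of Cy5 (tumor) to Cy3 (reference). Outlier spots, and rows dimmed in Cy5 by over 0.5 (log2, in bands of 10 rows) on 7 arrays, were set missing and not imputed. Probes whose signal exceeded 10 in tumor and reference alike on 80% or more of the arrays were kept, and the brightest one stood for a gene. Groups were compared with limma 3.58.1 in R 4.3.3, with p adjusted (Benjamini-Hochberg) over all genes and a threshold of 0.05. The step was tested on simulated data. The study's methods imputed missing values from 10 nearest probes, which was run as an alternative. Marker means are means of gene-centred log2 ratios. Correlations used 100000 permutations.

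The text gives values for every member called in a comparison and for a fixed set of well-known members, and for at most 3 called genes per pathway list. The members and lists were chosen with earlier results of these data known.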

Additional observations from a re-analysis of the deposited data

Results flagged for a closer look

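A tumor far from the others of its group (Dixon's test at the 95% level) was found for 11 of 67 gene and group combinations looked at. Chance flags about 1 in 20 groups. All values are log2 ratios of tumor to reference.

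Among early tumors, HFD early replicate 1 had Adamts1 at 0.728, the nearest of 5 tumors being at -0.306, and Adamts9 at 0.145, the nearest of 6 being at 1.29. HFD early replicate 3 had Mmp2 at 0.677, with the nearest at -1.46. HFD-LFD early replicate 3 was low for Adamts10, at -0.453 against 0.00987, and HFD-LFD early replicate 2 was low for Mmp10, at 0.529 against 1.22.

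Among late tumors, HFD late replicate 4 had Mmp10 at 3.12 (nearest 0.24) and Mmp11 at 2.06 (nearest -0.0393). LFD late replicate 2 had Adamts2 at 0.305, the other 3 lying at -1.25 or below, and LFD late replicate 3 had Mmp9 at -1.38, with the nearest at -3.38. LFD-HFD late replicate 1 was low for Mmp14, at -2.20 against -1.37, and for Mmp2, at -1.67 against -0.748. HFD late replicate 4 was the highest of all tumors for 7 members and the lowest for 6.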

How the results depend on the processing

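Counts of members called are given here with the share of all genes called by the same rule in parentheses. For early against late tumors, 5 members passed (16.4%). The count was 3 with the dimmed rows kept (10.3%), 3 with the scanner's log ratio (13.1%), 3 with the slide as a random block (7.82%), 8 with the scan session as a block (24.4%), 11 with median centring (24.3%), 11 with array weights (29.5%), 0 within scan session 1 (6.25%), 6 within session 2 (10.6%), 7 without slides 6 and 7 (17.5%) and 13 at an unadjusted p (32.4%). It was 4 to 7 when each tumor was left out in turn. Within HFD (2 members, 12.0%) it was 1 with the scanner's log ratio (9.42%), 1 with the tumor channel alone (5.11%), 0 with the slide block (3.72%), 6 with the session block (16.2%), 11 with weights (37.3%), 8 unadjusted (29.1%), and 0 to 5 leaving out each tumor. Within HFD-LFD (1 member, 0.797%) it was 2 with the session block (2.84%), 5 with weights (9.48%), 4 unadjusted (15.0%), and 0 to 2 leaving out each tumor. The joint test of late diets (0 members, 2.15%) gave 1 with the session block (Timp4, 2.24%), 11 with weights (18.8%), 9 unadjusted (20.3%), and 0 to 1 leaving out each tumor, the 1 being Timp4 without LFD-HFD late replicate 1. HFD against LFD gave 5 (5.06%) and the difference between diets 1 (7.92%) unadjusted, and each stayed at 0 leaving out tumors. The cause of these shifts was not tested.

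Adamts4, Adamts8 and Adamts9 passed in each of the 24 fits without 1 tumor. Sign changed for Adamts2 with dimmed rows kept (0.31), the second Adamts4 probe (-0.046), Adamts5 with the session block (-0.039), within scan session 2 (-0.33) and without slides 6 and 7 (-0.0489), Mmp11 with median centring (0.25) and leaving out tumors (-0.2406 to 0.016), Mmp3 with median centring (0.030), and Mmp7 with the tumor channel alone (0.029), without slides 6 and 7 (0.043) and with weights (0.023). Over all genes 3471 passed, against 2142 with dimmed rows kept, 1654 with the slide block, 1321 and 2216 within sessions 1 and 2, 6235 with weights and 1887 to 4272 leaving out each tumor. The number of early arrays limits the precision throughout. The second probes and a dimming limit of 0.25 were added after seeing the data. No paired analysis was possible because replicate numbers here only name tumors in accession order, and no label ties tumors of different groups together.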
